A study of Mus musculus with 6 samples.

Results

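The metalloproteinases that cut the extracellular matrix and the ectodomains of membrane proteins, together with their tissue inhibitors, were followed in left ventricles of angiotensin II-infused mice with and without cytoglobin (Cygb). Members were chosen by gene symbol alone, as every transcript named Timp, Mmp, Adam, Adamts or Adamtsl with a number, which gave 48 of the 13384 genes in the count table. These were 4 tissue inhibitors of metalloproteinases (TIMPs), 10 matrix metalloproteinases (MMPs), 13 members of the ADAM family, 15 of the ADAMTS family, 5 ADAMTS-like genes (ADAMTSL) and Mmp24os1, an RNA named for the strand opposite Mmp24. Polyadenylated RNA was sequenced in bulk from 6 libraries, each from an individual adult mouse. The knockout group was 3 Cygb(-/-) mice, which lack the gene in all tissues, and the control group was 3 wild-type littermates. Every mouse, controls included, was infused with angiotensin II (1.5 mg/kg/day, a hormone that raises blood pressure) by implanted pump over 2 weeks, and uninfused mice were not analysed here. The sources used here give neither age in weeks nor sex. Cygb itself was not analysed here, so genotype is taken from the labels.

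The MMPs and ADAMTS proteases are secreted or held at the cell surface and cut collagens, proteoglycans and other matrix proteins, whereas most active ADAMs are membrane proteins that release growth factors, cytokines and Notch receptors from the cell surface. The proteases are made as inactive precursors, and the 4 TIMPs block the zinc-containing active sites of the MMPs. In heart muscle these enzymes and inhibitors are studied for their part in the turnover of the fibrillar collagen network under pressure load. Transcript levels, measured here, are 1 of several layers of control, beside precursor cleavage and inhibitors.

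Sequences upstream of 4 members are shown first, because these genes illustrate the contrast in promoter letters within the group: Mmp3 and Mmp13 held both an AP-1 motif and a TATA motif, and Mmp14 and Adam10, whose groups did not overlap in level, held GC boxes. RefSeq (GRCm38.p6) gave a promoter for 31 of the 48 members, and the 250 bases before the start are printed 5′ to 3′ on the gene's strand with motif matches on either strand in capitals. The AP-1 motif was spelled TGANTCA. For the TATA box the letters TATAAA were searched. The GC box was taken as GGGCGG. The windows are chr9:7445572-7445821 for Mmp3, chr9:7272264-7272513 for Mmp13, chr14:54431348-54431597 for Mmp14 and chr9:70678732-70678981 for Adam10, all on the plus strand.
Mmp3: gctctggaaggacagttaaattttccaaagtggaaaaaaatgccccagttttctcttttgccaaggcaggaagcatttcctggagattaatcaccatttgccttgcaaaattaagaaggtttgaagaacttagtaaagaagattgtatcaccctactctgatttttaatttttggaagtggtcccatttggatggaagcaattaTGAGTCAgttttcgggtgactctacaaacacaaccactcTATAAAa
Mmp13: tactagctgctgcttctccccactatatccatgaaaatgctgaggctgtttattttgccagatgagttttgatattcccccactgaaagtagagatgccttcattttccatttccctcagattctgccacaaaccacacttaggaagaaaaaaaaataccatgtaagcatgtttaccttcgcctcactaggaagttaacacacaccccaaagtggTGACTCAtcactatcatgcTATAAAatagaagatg
Mmp14: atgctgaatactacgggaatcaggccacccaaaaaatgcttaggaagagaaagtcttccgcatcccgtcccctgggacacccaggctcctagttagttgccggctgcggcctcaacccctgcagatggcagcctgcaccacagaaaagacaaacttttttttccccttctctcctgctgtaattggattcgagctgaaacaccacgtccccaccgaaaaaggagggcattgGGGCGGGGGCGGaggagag
Adam10: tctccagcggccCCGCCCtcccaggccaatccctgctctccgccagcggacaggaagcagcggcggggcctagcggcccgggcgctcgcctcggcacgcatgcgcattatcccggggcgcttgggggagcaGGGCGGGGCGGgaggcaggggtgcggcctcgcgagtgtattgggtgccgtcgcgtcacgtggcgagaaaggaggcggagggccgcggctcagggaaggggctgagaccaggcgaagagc
The AP-1 letters read the same on both strands, and GC boxes that shared bases were counted separately, so that the run in Adam10 counts as more than 1 match. AP-1 matches were found in 3 of the 31 members (9.7%; Mmp13, Mmp3 and Adam19) and in 4.1% of 10065 promoters of the same length. TATA matches were found in 4 (12.9%; Mmp13, Mmp3, Adamts1 and Adamtsl2, against 6.5%), and GC boxes in 20 (64.5%, against 59.7%). A match describes letters only and is not shown to be a bound site.

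No member passed the edgeR test in the fit of all 6 libraries. With edgeR's quasi-likelihood test and Benjamini-Hochberg adjustment over the whole table, 0 of 48 members were called at an adjusted p of 0.05, where 15 of all genes (0.112%) were called. At an unadjusted p under 0.05, 11 members (22.9%) differed, against 19.2% of all genes. Of these, 3 were higher in the knockout (Adam22, Adam10 and Adamtsl3; 6.25%, against 10.2% of all genes) and 8 were lower (Adamtsl5, Mmp14, Mmp2, Adamtsl2, Mmp23, Adam33, Adam15 and Adamts8; 16.7%, against 8.94%). DESeq2 called 5 members at an adjusted p of 0.05, among 4.71% of all genes: Adam22 and Adam10 were higher and Adamtsl5, Adamtsl2 and Mmp2 were lower, with 2.68% of all genes higher and 2.03% lower by that test. Limma-voom called 0 members and 0.105% of genes, with 6 members higher and 8 lower at an unadjusted p under 0.05, where 10.6% of all genes were higher and 8.38% lower. Without wild type 2, edgeR called 5 members (Adamtsl5, Timp3, Adam22, Adamtsl3 and Adam10), where it called 13.6% of all genes. In that fit 11 members were higher at an unadjusted p under 0.05, against 16.3% of all genes. The groups did not overlap for 11 members (22.9%, against 22.3% of all genes), of which 4 were higher in the knockout (Timp3, Adam22, Adam10 and Adamts3; 8.33%, against 11.8%) and 7 lower (Mmp14, Mmp2, Mmp11, Adam15, Adamts8, Adamtsl5 and Adamtsl2; 14.6%, against 10.5%).

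The members' median log2 fold change, knockout minus wild type, was -0.04, with 24 members above 0 and 24 below, and the median over all genes was -0.0045. By family the medians were 0.05 for the TIMPs, -0.38 for the MMPs, 0.23 for the ADAMs, 0.04 for the ADAMTS proteases and -0.19 for the ADAMTSL genes. Of the MMPs 8 of 10 lay below 0 and of the ADAMs 9 of 13 lay above, where 50.6% of all genes lay below 0. The members were more variable than most genes: their median coefficient of variation between mice was 18.5% in the knockout and 28.1% in the wild type, against 10.6% and 15.2% over all genes. A difference that missed the threshold does not show that the groups had equal levels.

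**Figure D1:**
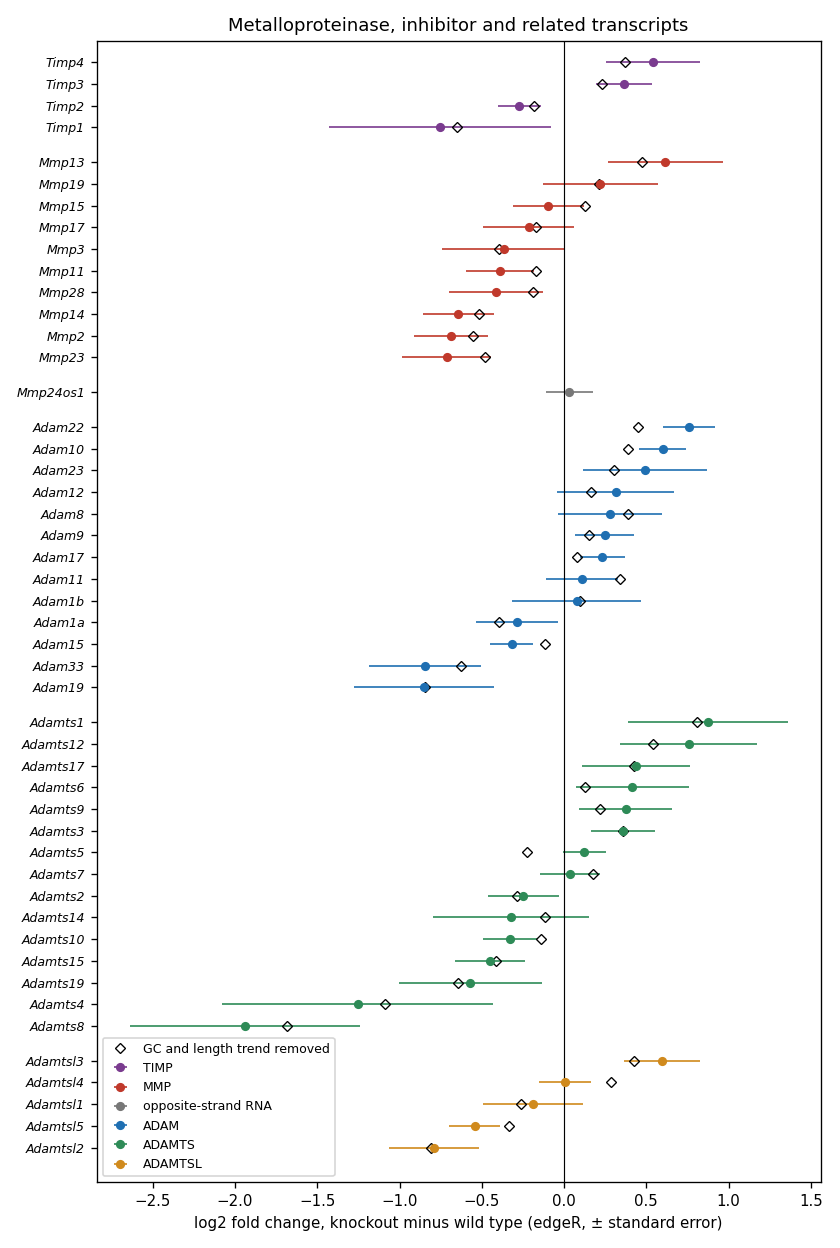
Log2 fold change of each of the 48 members (knockout minus wild type, horizontal axis) by family, as filled points with the standard error of the edgeR fit. Open diamonds give the value after the trend with GC content and transcript length was removed, for the 47 members with a transcript. 8 of 10 MMPs lie left of 0 and 9 of 13 ADAMs lie right of it.

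Transcript levels are given as CPM, counts relative to library totals adjusted by TMM factors, and were first summed by family. The MMP sum was 273 ± 21.6 CPM in the knockout mice and 361 ± 37.0 CPM in wild-type mice (SD, n = 3 each). The ADAMTSL sum was 183 ± 5.55 CPM against 239 ± 22.3 CPM. In both families the ranges of the groups did not overlap. Mmp2 (group means 90.4 CPM for knockout against 145 CPM for wild type) and Mmp15 (126 against 135 CPM) made up most of the MMP sum. Adamtsl5 (85.9 against 125 CPM) and Adamtsl4 (58.6 against 58.3 CPM) made up most of the ADAMTSL sum. The gaps between groups therefore do not show a difference shared by the whole family, and sums without these members were not made. For the TIMPs the sums were 458 ± 12.7 and 406 ± 80.4 CPM, for the ADAMs 359 ± 12.9 and 354 ± 49.3 CPM, and for the ADAMTS proteases 300.1 ± 25.2 and 276 ± 44.5 CPM, and these ranges overlapped. These sums describe the families and were not tested.

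Between genes, levels were compared per kilobase of exon, as the mean over the 6 libraries. Mmp2 was highest at 35.0 CPM per kilobase, followed by Timp2 at 31.9, Timp3 at 30.8, Mmp15 at 24.1, Adamtsl5 at 22.4 and Adam9 at 17.5. The order of the leading 3 is within the spread between libraries. The interstitial collagenase Mmp13 was at 0.413 CPM per kilobase and Adamts19 was lowest at 0.122. The inhibitors Timp2 and Timp3 thus stood beside the gelatinase Mmp2 at the top of the order, and the secreted collagenase near its foot. Every gene of the table had counts in every library, so members low or silent in a mouse, such as the neutrophil enzymes Mmp8 and Mmp9, were not analysed here.

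Among the inhibitors, Timp3 and Timp4 were higher in the knockout and Timp2 and Timp1 were lower, and none passed the test in the fit of all 6 libraries. Timp3, which binds to the matrix and also inhibits ADAM17 and the aggrecan-cutting ADAMTS proteases, was at 267, 296 and 284 CPM in the knockout mice and 157, 264 and 236 CPM in wild-type mice. All 3 knockout libraries lay above all 3 wild-type libraries, and the lowest value was wild type 1. The log2 fold change was 0.37 ± 0.17 (SE; adjusted p = 0.263 in edgeR). Without wild type 2 it was 0.53 (edgeR adjusted p = 0.0481), and without wild type 1 it was 0.17. With the GC and length trend removed it was 0.23. Timp4, the member of the family most typical of heart, was at 57.5, 61.2 and 51.1 CPM in the knockout mice and 24.3, 33.4 and 58.7 CPM in wild-type mice. Its groups overlapped through wild type 3, and the log2 fold change was 0.54 ± 0.29 (SE; adjusted p = 0.335 in edgeR). It ran from 0.30 without wild type 1 to 0.97 without wild type 3.

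Timp2, which also serves with Mmp14 in the activation of the Mmp2 precursor, was at 123, 107 and 109 CPM in the knockout mice and 131, 156 and 121 CPM in wild-type mice. Only the lowest wild-type value fell within the knockout range, and the log2 fold change was -0.27 ± 0.13 (SE; adjusted p = 0.277 in edgeR), or -0.15 without wild type 2. Timp1, the inhibitor best known as inducible in injured tissue, was at 8.70, 8.66 and 3.48 CPM in the knockout mice and 4.94, 22.3 and 8.03 CPM in wild-type mice. The high value was wild type 2. The log2 fold change of -0.76 ± 0.67 (SE; adjusted p = 0.582 in edgeR) became 0.10 without that library. Timp1, Timp3 and Timp4 each lie inside a synapsin gene (Syn1, Syn3 and Syn2) on the opposite strand. Whether counting used strand is not given in the sources used here, so reads of such pairs cannot be told apart; in the table Syn3 was at 2.03 CPM and Syn2 at 6.24 CPM over the 6 libraries.

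In the MMP family the differences with the smallest p were all lower in the knockout: Mmp14, Mmp2 and Mmp23. Mmp14 (chr14:54431612-54445364, plus strand; positions are those of GRCm38), the membrane-bound collagenase that activates the Mmp2 precursor, was at 31.2, 29.1 and 15.3 CPM in the knockout mice and 39.0, 39.9 and 39.4 CPM in wild-type mice. The wild-type mice were nearly equal, and the lowest value was knockout 3. On the log2 scale the difference was -0.64 ± 0.22 (SE; adjusted p = 0.156 in edgeR), and -0.39 without knockout 3. Mmp2 (chr8:92827291-92853420, plus strand), a gelatinase made mainly by fibroblasts, was at 94.1, 92.9 and 84.1 CPM in the knockout mice and 117, 211 and 108 CPM in wild-type mice. All knockout values lay below all wild-type values, and wild type 2 stood highest. The log2 fold change was -0.69 ± 0.23 (SE; adjusted p = 0.156 in edgeR and 0.0385 in DESeq2), and -0.31 without wild type 2. The pair of Mmp14 and its substrate thus lay the same way. Knockout 3 stood furthest from the rest for Mmp14, and wild type 2 for Mmp2. For both genes wild type 2 was the highest library and knockout 3 the lowest.

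Mmp23, a membrane-anchored enzyme with an unusual domain make-up, was at 8.62, 11.4 and 6.57 CPM in the knockout mice and 10.2, 20.6 and 12.8 CPM in wild-type mice. Its groups overlapped, wild type 2 was again highest, and the log2 fold change was -0.71 ± 0.27 (SE; adjusted p = 0.188 in edgeR), or -0.37 without that library. Mmp11, or stromelysin-3, was at 3.84, 4.79 and 5.11 CPM in the knockout mice and 6.42, 5.43 and 6.16 CPM in wild-type mice, without overlap between the groups. On the log2 scale the difference was -0.39 ± 0.21 (SE; adjusted p = 0.316 in edgeR), and -0.17 with the GC and length trend removed. Mmp11 partly overlaps Chchd10 on the opposite strand, which was far more abundant at 432 CPM and had a log2 fold change of -0.50 (edgeR adjusted p = 0.216). Mmp28 was at 3.55, 3.87 and 2.43 CPM in the knockout mice and 5.72, 4.46 and 2.98 CPM in wild-type mice, which overlapped at a log2 fold change of -0.41 ± 0.29 (SE). It was -0.17 without wild type 1 and -0.19 with the GC and length trend removed.

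Mmp13 and Mmp3, next to each other among the members on chromosome 9, lay 162.5 kb apart and differed in sign. Mmp13, the main interstitial collagenase of rodents, was at 1.39, 1.79 and 0.838 CPM in the knockout mice and 0.823, 0.737 and 1.05 CPM in wild-type mice. Those are 19 to 43 counts a library, and the ranges overlapped at a log2 fold change of 0.62 ± 0.35 (SE; adjusted p = 0.354 in edgeR), or 0.35 without knockout 2. Mmp3, or stromelysin-1, which cuts proteoglycans and activates other MMP precursors, was at 7.96, 6.95 and 5.34 CPM in the knockout mice and 5.93, 14.9 and 5.34 CPM in wild-type mice. Wild type 2 alone stood apart, and the log2 fold change of -0.37 ± 0.38 (SE) became 0.27 without it. The pair, whose upstream letters are shown above, thus had opposite signs in the fit.

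Mmp15, a membrane-type enzyme and the most abundant MMP after Mmp2 per kilobase, was at 131, 125 and 122 CPM in the knockout mice and 179, 86.0 and 139 CPM in wild-type mice. The knockout values were close together and fell inside the wild-type range. The log2 fold change was -0.10 ± 0.21 (SE), and 0.13 with the GC and length trend removed. Mmp17, another membrane-type enzyme, was at 2.65, 3.29 and 3.62 CPM in the knockout mice and 5.02, 2.71 and 3.38 CPM in wild-type mice. Mmp19 was at 4.45, 3.66 and 3.44 CPM in the knockout mice and 3.17, 5.16 and 1.64 CPM in wild-type mice. Both overlapped widely, at log2 fold changes of -0.22 ± 0.28 and 0.22 ± 0.35 (SE). The noncoding Mmp24os1 was at 19.8, 18.6 and 16.6 CPM in the knockout mice and 18.2, 16.7 and 18.9 CPM in wild-type mice, which overlapped.

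**Figure D2:**
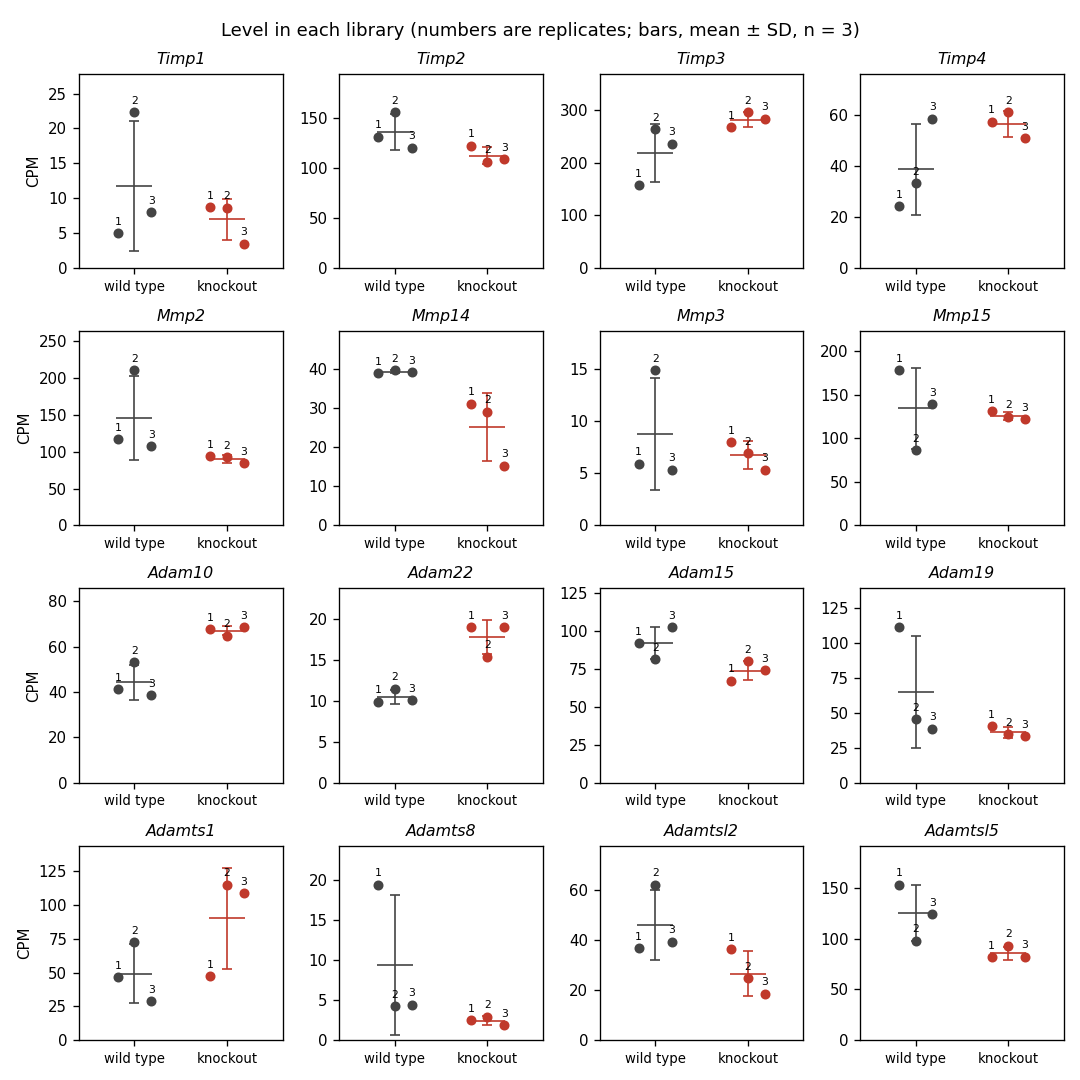
Level of 16 members in each library (vertical axis, CPM from 0), wild type in grey and knockout in red, with the replicate number beside each point and bars for mean ± SD (n = 3). Adam10 and Adam22 do not overlap between groups, wild type 2 is the high point for Timp1, Mmp2 and Mmp3, and wild type 1 is the high point for Adam19 and Adamts8.

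Adam22 and Adam10 had the smallest p of all members, and both were higher in the knockout. Adam22 (chr5:8072352-8368160, minus strand), which has no active protease site and is known as a receptor for the secreted LGI proteins, was at 19.0, 15.4 and 19.0 CPM in the knockout mice and 9.92, 11.5 and 10.1 CPM in wild-type mice. The groups were separated by more than the spread within either. On the log2 scale the difference was 0.76 ± 0.16 (SE; adjusted p = 0.0634 in edgeR and 0.00279 in DESeq2), and 0.45 with the GC and length trend removed (edgeR adjusted p = 0.167). Adam10 (chr9:70678997-70780229, plus strand), the protease that cuts Notch receptors and many other membrane proteins, was at 67.8, 64.9 and 68.6 CPM in the knockout mice and 41.2, 53.1 and 38.7 CPM in wild-type mice. The knockout mice differed from each other by little, and all lay above the highest wild-type mouse. Its log2 fold change was 0.60 ± 0.14 (SE; adjusted p = 0.0781 in edgeR and 0.0109 in DESeq2), and 0.39 with that trend removed (edgeR adjusted p = 0.104). Without wild type 2 both passed in edgeR, at adjusted p = 0.00936 for Adam22 and 0.00459 for Adam10.

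Adam17, which releases tumour necrosis factor and ligands of the EGF receptor, was at 62.4, 50.5 and 54.8 CPM in the knockout mice and 48.2, 52.6 and 41.9 CPM in wild-type mice. Adam9, a broadly expressed sheddase, was at 81.5, 64.2 and 88.3 CPM in the knockout mice and 65.3, 81.7 and 50.1 CPM in wild-type mice. Adam12, known for release of heparin-binding EGF, was at 2.82, 1.79 and 1.63 CPM in the knockout mice and 1.19, 2.56 and 1.28 CPM in wild-type mice. These 3 overlapped between groups, at log2 fold changes of 0.23 ± 0.14, 0.25 ± 0.18 and 0.31 ± 0.36 (SE). With the GC and length trend removed these were 0.08, 0.15 and 0.17. Without wild type 3 Adam17 was at 0.15 and Adam9 at 0.08, and Adam12 ran from 0.03 without knockout 1 to 0.76 without wild type 2. Whether Adam10 differed from Adam17 in its response was not tested.

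Adam15, Adam33 and Adam19 were lower in the knockout. Adam15, a membrane protease of vessel cells and other tissues, was at 67.3, 80.1 and 74.1 CPM in the knockout mice and 91.9, 81.5 and 103 CPM in wild-type mice, with a narrow gap between the groups. Its log2 fold change was -0.32 ± 0.13 (SE; adjusted p = 0.216 in edgeR), and -0.12 with the GC and length trend removed. Adam33, a gene of mesenchymal cells, was at 1.39, 2.50 and 1.06 CPM in the knockout mice and 3.71, 2.95 and 2.29 CPM in wild-type mice. The ranges overlapped through knockout 2, at -0.85 ± 0.34 (SE; adjusted p = 0.206 in edgeR), or -1.28 without knockout 2. Adam19, which is needed for heart development in mice, was at 40.6, 34.7 and 33.2 CPM in the knockout mice and 111, 45.4 and 38.9 CPM in wild-type mice. Wild type 1 alone made most of that difference: the log2 fold change of -0.85 ± 0.43 (SE; adjusted p = 0.337 in edgeR) was -0.22 without it. The other 5 ADAMs (Adam1a, Adam1b, Adam8, Adam11 and Adam23) overlapped between groups, with log2 fold changes from -0.29 for Adam1a to 0.49 for Adam23.

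The ADAMTS proteases spread more widely than any other family here, from Adamts8 at -1.94 to Adamts1 at 0.87 on the log2 scale. Among the enzymes that cut versican and aggrecan, Adamts1 was at 47.3, 115 and 109 CPM in the knockout mice and 46.6, 72.7 and 28.7 CPM in wild-type mice. Knockout 2 and knockout 3 stood above the rest, knockout 1 lay with the wild type, and the log2 fold change was 0.87 ± 0.48 (SE; adjusted p = 0.388 in edgeR). Its neighbour Adamts5, 53.1 kb away on chromosome 16, was at 33.1, 36.3 and 33.3 CPM in the knockout mice and 29.3, 35.0 and 30.0 CPM in wild-type mice. There the mice hardly differed, at 0.12 ± 0.13 (SE), and the sign turned to -0.22 with the GC and length trend removed. Adamts9 was at 54.1, 25.8 and 25.8 CPM in the knockout mice and 31.4, 26.4 and 23.8 CPM in wild-type mice, with knockout 1 as the single high value: the log2 fold change of 0.37 ± 0.28 (SE) became -0.07 without it.

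Adamts8 and Adamts4, which also cut hyaluronan-binding proteoglycans, were lower in the knockout and were both highest in wild type 1. Adamts8 was at 2.49, 2.91 and 1.85 CPM in the knockout mice and 19.4, 4.26 and 4.42 CPM in wild-type mice. All wild-type values exceeded all knockout values, but the log2 fold change of -1.94 ± 0.70 (SE; adjusted p = 0.223 in edgeR) was -0.84 without wild type 1. Adamts4 was at 4.21, 1.41 and 0.661 CPM in the knockout mice and 9.67, 2.56 and 2.95 CPM in wild-type mice, and the groups overlapped. Its log2 fold change was -1.26 ± 0.82 (SE; adjusted p = 0.455 in edgeR), with -0.39 without wild type 1 and -2.27 without knockout 1. Adamts15 faces Adamts8 across 20.1 kb of chromosome 9 on the other strand and was at 8.16 to 11.4 CPM in the knockout mice and 9.58 to 16.2 CPM in wild-type mice, at -0.45 ± 0.21 (SE), or -0.25 without wild type 1.

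Of the enzymes that trim procollagen ends, Adamts2 was at 39.7, 36.6 and 34.5 CPM in the knockout mice and 39.1, 62.0 and 30.6 CPM in wild-type mice. Wild type 2 was the high value, and the log2 fold change of -0.25 ± 0.22 (SE; adjusted p = 0.553 in edgeR) became 0.09 without it. Adamts3 was at 6.21 to 7.98 CPM in the knockout mice and 5.02 to 6.16 CPM in wild-type mice, which did not overlap, at 0.36 ± 0.20 (SE; adjusted p = 0.329 in edgeR). Adamts14 overlapped widely at -0.32 ± 0.47 (SE), and single libraries decided its value: -1.23 without knockout 1, -0.03 without knockout 2 and -0.01 without knockout 3. The family's remaining 6 members (Adamts6, Adamts7, Adamts10, Adamts12, Adamts17 and Adamts19) overlapped between groups, with log2 fold changes from -0.57 for Adamts19 to 0.76 for Adamts12.

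The ADAMTSL genes, which share the carboxy-terminal repeats of the ADAMTS proteases but lack a protease domain, had 2 of their 5 members without overlap, both lower in the knockout, where 10.5% of all genes were lower without overlap. Adamtsl5 (chr10:80339110-80348412, minus strand), whose product is found with fibrillin microfibrils, was at 82.1, 93.3 and 82.2 CPM in the knockout mice and 153, 98.2 and 124 CPM in wild-type mice. The knockout mice lay close together, below a more scattered wild type. The log2 fold change was -0.54 ± 0.16 (SE; adjusted p = 0.111 in edgeR and 0.036 in DESeq2), and -0.34 with the GC and length trend removed. Without wild type 2 it was -0.68 (edgeR adjusted p = 0.00849). Adamtsl2 (chr2:27079379-27108981, plus strand), which binds fibrillin and a latent TGF-beta binding protein, was at 36.4, 24.8 and 18.6 CPM in the knockout mice and 36.6, 62.1 and 39.4 CPM in wild-type mice. Knockout 1 nearly met wild type 1, and wild type 2 was highest. On the log2 scale the difference was -0.79 ± 0.27 (SE; adjusted p = 0.174 in edgeR and 0.0327 in DESeq2), or -0.51 without wild type 2.

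Adamtsl3 was higher in the knockout, at 7.72, 8.66 and 12.7 CPM against 5.76, 7.95 and 5.50 CPM in the wild type. The groups overlapped through wild type 2, and the log2 fold change was 0.59 ± 0.23 (SE; adjusted p = 0.191 in edgeR), 0.79 without that library (edgeR adjusted p = 0.0407) and 0.35 without knockout 3. Adamtsl1 and Adamtsl4 overlapped widely, at -0.19 ± 0.30 and 0.01 ± 0.16 (SE).

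**Figure D3:**
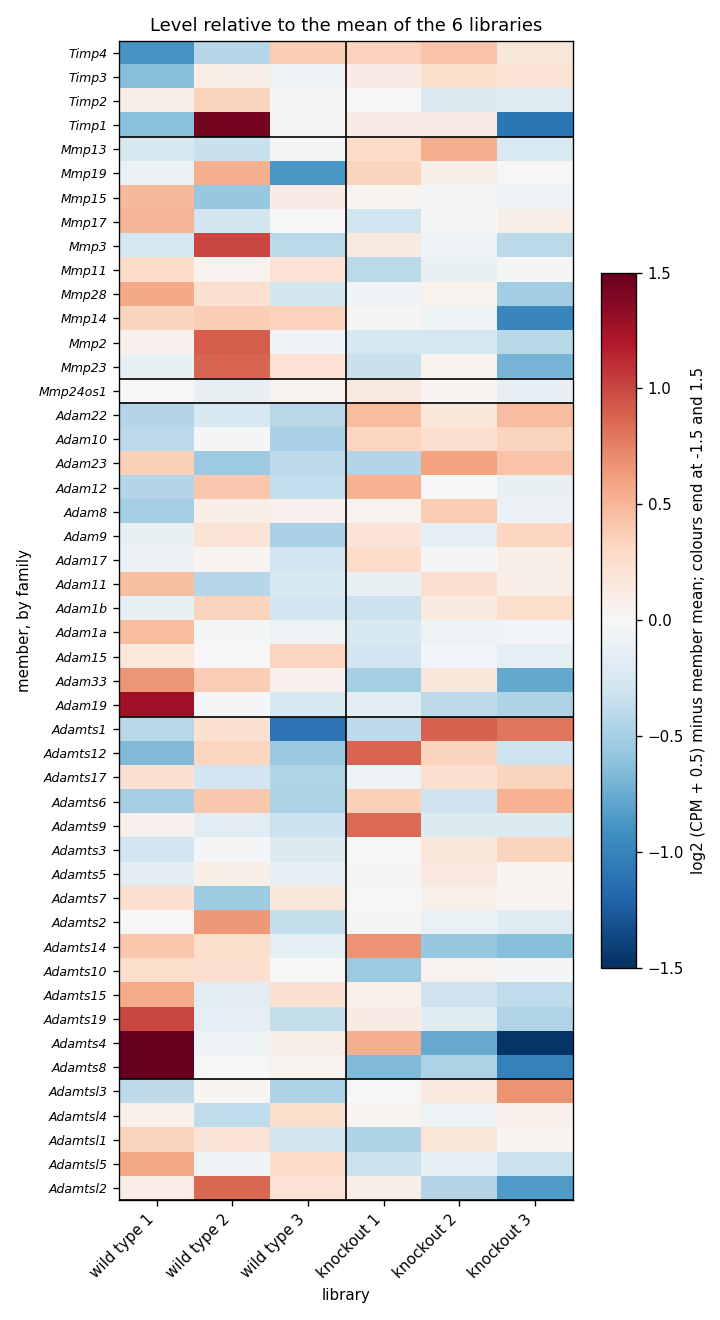
Level of the 48 members in each library (log2 of CPM + 0.5, minus the member's mean over the 6 libraries; red is higher, blue is lower), by family and, within a family, by fold change. Wild type 1 is the darkest red for Adamts4, Adamts8, Adam19 and Adamts19, wild type 2 for Timp1, Mmp3, Mmp2 and Mmp23, and knockout 3 is the darkest blue for Adamts4, Timp1 and Mmp14.

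Single libraries held many of the members' extremes, and 41 of the 48 log2 fold changes moved by over 1.5 times or turned in sign when some library was left out. The 7 others were Mmp11, Adamtsl5, Adamts1, Adam15, Adam22, Adamts3 and Adam10. With the GC and length trend removed, 20 of the 47 members with a value moved by that much or turned in sign. The same counts were not made over all genes, so they do not set the members apart from other genes. Wild type 1 was the highest library for 16 members (33.3%, against 21.2% of all genes) and wild type 2 for 10 (20.8%, against 14.9%), while wild type 3 was highest for 2 (4.17%, against 19.9%). Knockout 3 was the lowest library for 15 members (31.3%, against 17.6%). The summed level of 5 atrial muscle markers, all measured, was 3042 CPM in wild type 1, 2110 CPM in wild type 2 and 703 CPM in wild type 3, and 494 to 568 CPM in the knockout. Nppa, an atrial hormone gene that the ventricle also makes under load, was most of that sum, at 2282, 2058 and 623 CPM in the wild types and 449 to 533 CPM in the knockout. The other 4 markers were highest in wild type 1, and in wild type 2 they were far nearer to the knockout. Myl7, an atrial myosin light chain, was at 250 CPM in wild type 1 and at 19.2 and 27.6 CPM in the other wild types. In the knockout it was at 12.0 to 13.4 CPM. The summed level of the 4 measured mesothelial markers of 5 listed, from the outer lining of the heart, was 49.4 CPM in wild type 1. That sum was 23.6 to 26.8 CPM in the other wild types and 13.5 to 19.5 CPM in the knockout. These marker sums were thus highest in the library that was also highest for Adam19, Adamts8, Adamts4 and Adamts19, and their part in those values was not tested.

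Wild type 2, the high library for Mmp2, Mmp3, Mmp23, Timp1, Adamts2 and Adamtsl2, also had the highest sums of fibroblast markers. The 8 activated fibroblast markers (among them Postn and Comp) summed to 1304 CPM there, to 456 and 517 CPM in the other wild types and to 274 to 408 CPM in the knockout. The 8 fibroblast markers summed to 3052 CPM in wild type 2, 2324 and 2355 CPM in the other wild types and 1923 to 1975 CPM in the knockout. The fibroblast sums did not overlap between groups, as the MMP sums did not. Gsn, the most abundant of the 8, was at 972 to 1005 CPM in the knockout and 1313 to 1377 CPM in the wild type. Gsn, Pi16 and Tcf21 were lower without overlap, and Pdgfra, Dcn, Lum, Dpt and Col1a1 overlapped. The part of these markers in the MMP values was not tested. Smooth muscle markers (6 of 6 measured) summed to 343 to 508 CPM in the wild type and 268 to 339 CPM in the knockout, also without overlap. Singly, Acta2 and Myl9 were lower without overlap, and Tagln, Smtn, Cnn1 and Myh11 overlapped. Macrophage markers (7 of 7 measured) summed the other way, to 303 to 375 CPM in the wild type and 384 to 394 CPM in the knockout. Only Cd163 was higher without overlap, and Mrc1, Adgre1, Cd68, Csf1r, Lyz2 and C1qa overlapped. Lyz2, the most abundant of these, was at 133 to 184 CPM in the wild type and 156 to 192 CPM in the knockout. The part of both lists in the members' values was not tested. In bulk tissue, fewer cells of a type and less RNA per cell cannot be told apart. The 7 cardiomyocyte markers were abundant in every library, at 52000.5 to 69952 CPM, and 3 of 9 neutrophil markers were measured, at a sum of 5.73 to 11.6 CPM.

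**Figure D4:**
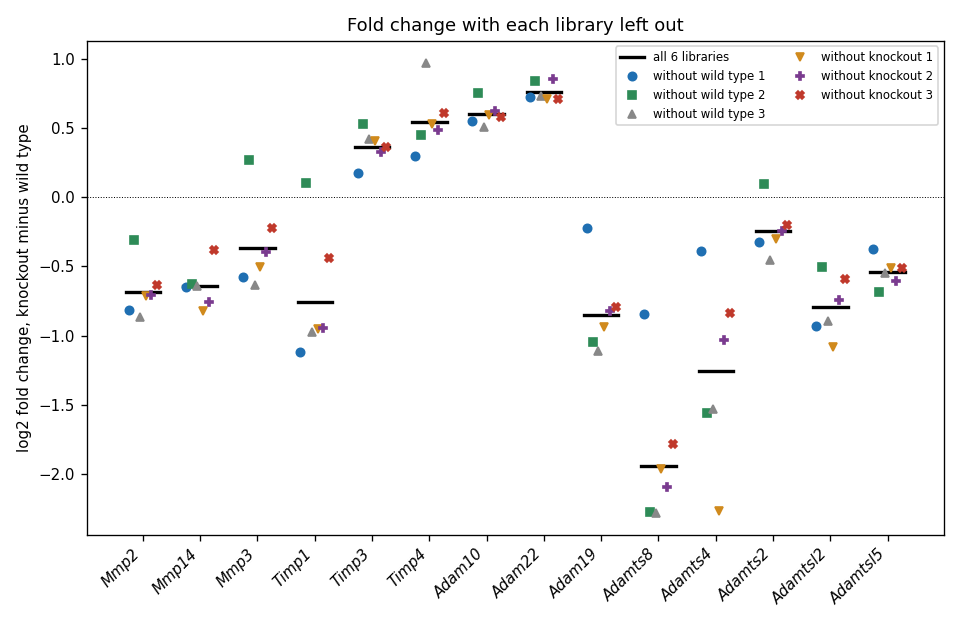
Log2 fold change (knockout minus wild type, vertical axis) of 14 members with all 6 libraries (black bars) and with each library left out (symbols). The value moves most without wild type 1 for Adam19 and Adamts8, and it turns above 0 without wild type 2 for Mmp3, Timp1 and Adamts2.

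Fold changes in these libraries followed the GC content of the transcripts, among the members as among all genes. Over 5 bins of all genes from low to high GC content, the median log2 fold change ran 0.20, 0.11, 0.0098, -0.098 and -0.24. Of the members, 18 of 21 in the lower 3 bins, up to 51.7% GC, had a log2 fold change above 0, and 5 of 26 in the upper 2. The members' medians in the 5 bins were 0.507, 0.365, 0.337, -0.545 and -0.325, each further from 0 than that of all genes. The bins held 4 to 14 members, and the share of all genes above 0 in each was not counted. The 3 members higher at an unadjusted p under 0.05 had 42.1 to 49.2% GC, and the 8 lower ones 53.6 to 58.6%. After the trend with GC content and length was removed from each library, 5 of the 48 members differed at an unadjusted edgeR p under 0.05. These were Adamtsl5, Adamtsl4, Adam22, Adamts8 and Adam10, against 14.1% of all genes. In that fit 0 members passed the adjusted threshold, where 0.366% of all genes did. What makes the trend was not tested.

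**Figure D5:**
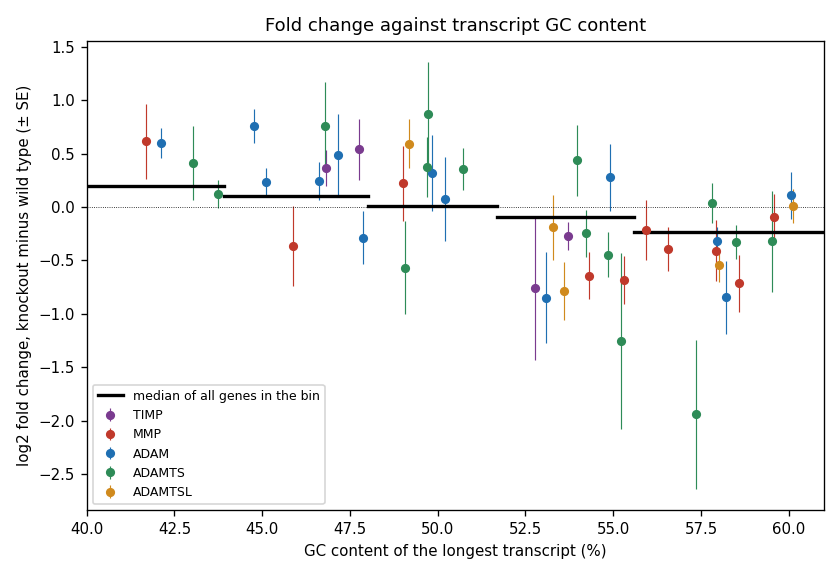
Log2 fold change (knockout minus wild type, with standard error) of the 47 members with a transcript against its GC content in percent, coloured by family; black bars are the medians of all genes in each of 5 GC bins, cut to the range of the members. Of the members up to 51.7% GC, 18 of 21 lie above 0, and above that 5 of 26.

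Other genes of the pathway were read from lists that also hold regulators and substrates. Of 9 regulators of ADAM17 and ADAM10 traffic (iRhoms, their partner and tetraspanins), 8 were measured, the median was -0.23, 6 lay below 0 and 4 were lower at an unadjusted p under 0.05, where 8.94% of all genes were lower and 10.2% higher. The iRhom genes Rhbdf2 and Rhbdf1, which carry the ADAM17 precursor to the surface, were at -0.74 ± 0.20 (SE; adjusted p = 0.102 in edgeR) and -0.44 ± 0.13 (SE; adjusted p = 0.121 in edgeR) on the log2 scale, and the tetraspanin Tspan17 was at -0.35 ± 0.14 (SE; adjusted p = 0.197 in edgeR). In all 3 the groups did not overlap. Of 27 substrates of these sheddases and EGF receptor genes 22 were measured, with a median of -0.24, and 2 lay higher and 2 lower at that p. The membrane-bound chemokine Cx3cl1 was at -0.60 ± 0.17 (SE; adjusted p = 0.107 in edgeR), heparin-binding EGF (Hbegf) at -0.61 ± 0.21 (SE; adjusted p = 0.156 in edgeR) and the neuregulin receptor Erbb4 at 1.00 ± 0.36 (SE; adjusted p = 0.165 in edgeR).

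Of 18 ADAMTS substrates 13 were measured, 12 lay below 0 and the median was -0.35, with 4 lower and 1 higher at an unadjusted p under 0.05. Of all genes 50.6% lay below 0, and 8.94% were lower and 10.2% higher at that p in edgeR. The small proteoglycan biglycan (Bgn) was at -0.86 ± 0.23 (SE; adjusted p = 0.111 in edgeR), the pericyte proteoglycan Cspg4 at -0.54 ± 0.19 (SE; adjusted p = 0.16 in edgeR) and fibrillin-2 (Fbn2) at -0.87 ± 0.36 (SE; adjusted p = 0.216 in edgeR). Comp and the collagens on that list are also fibroblast genes, and the list's sum was 3526 CPM in wild type 2 and 1714 to 2084 CPM in the other 5 libraries. Of 23 regulators of proteolysis at the cell surface, 18 were measured, with a median of -0.05 and 3 lower at an unadjusted p under 0.05: the cathepsin inhibitor Cst3 at -0.36 ± 0.13, the testican Spock2 at -0.57 ± 0.21 and the precursor-cleaving protease Pcsk5 at -0.63 ± 0.29 (SE). Of 13 other matrix proteases 11 were measured, with a median of -0.0019, 1 higher and 1 lower at that p. The serine protease Htra3 was at -0.49 ± 0.13 (SE; adjusted p = 0.101 in edgeR), the lysosomal protease Ctss at 0.47 ± 0.20 and the procollagen C-proteinase Bmp1 at -0.23 ± 0.12 (SE). No gene of these 5 lists passed the adjusted threshold in edgeR. The values of these lists are from the fit without removal of the GC and length trend.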

How the data were processed

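The study measured polyadenylated RNA in 6 left ventricle libraries, grouped by genotype as the labels give it. Per the labels and the table itself, what the authors deposited are unnormalized counts, whole numbers for each gene and library. The submitters' processing notes name mm10 and DESeq2, with aligner, counter, annotation and strand use not given in the sources used here. Totals ran from 23190864 to 30354857 counts, no gene had fewer than 12 counts in a library, and 20 members had under 100 counts in some library, where counting error weighs most. Genes low in any library would be missing from such a table. The 170 genes without a symbol stayed in the fit.

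The test was edgeR 4.0.16 in R 4.3.3: robust quasi-likelihood, TMM factors, the tool's low-count filter (which removed no gene), no covariates, two-sided p-values and Benjamini-Hochberg adjustment over 13384 genes. The p-values rest on the spread between mice (common biological CV, 0.166). Positions, exon lengths and GC content came from GENCODE M21 (GRCm38), which matched 47 of 48 members. The trend with GC content and length was removed by splines (4 df) for each library, on transcripts found for 97.9% of genes, with the median given to the rest. Alternatives were DESeq2 1.42.0, limma-voom (limma 3.58.1), other size factors and filters, no robust estimation, a replicate block, and each library left out. The fit was tested on simulated data.

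Every member is named. Values in each library are given for each Timp and Mmp, for 13 members of the other families chosen for their known roles, and for any member with an unadjusted p under 0.05, which takes in some of those 13; the rest are given by range or fold change. Of each other list, up to 3 genes with the smallest p are named. Members and lists were chosen with earlier results of these data known. The spans of 12 members overlap a protein-coding gene on the opposite strand. Same-numbered libraries did not vary together, which cannot settle whether the samples were paired.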

Additional observations from a re-analysis of the deposited data

How the results depend on the processing

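With all 6 libraries and edgeR, 0 members were called, 3 were higher and 8 were lower at an unadjusted p under 0.05, and the median log2 fold change was -0.04. DESeq2 called 5 members, where it called 4.71% of all genes, with 5 higher at that p, against 9.79%. Limma-voom had 6 higher, against 10.6% of all genes. Removal of the GC and length trend left 2 lower, among 5 members in either direction, against 14.1% of all genes. Leaving out 1 library gave 0 to 5 called, 3 to 11 higher, 4 to 12 lower, and a median from -0.13 to 0.052. The 5 calls and the 11 came without wild type 2 (13.6% of all genes called, 16.3% higher), the 4 without knockout 3 and the 12 without wild type 3, and the causes were not tested. Same-numbered libraries did not vary together: correlations of their deviations were -0.13, -0.082 and -0.17, and those of other pairs -0.028 to 0.17. With 3 mice a group this cannot settle whether the samples were paired. A replicate block called 2 members (Adam22 and Adamts4) and 1.63% of all genes, where 0.112% were called without it. The blocked fit had 5 members higher at an unadjusted p under 0.05. At an unadjusted p under 0.05 it had 15 members and 16.2% of all genes. Of the 48 members, 33 kept 1 direction under every alternative and 15 did not, and the same count was not made over all genes. Adamtsl4 turned to -0.0058 with upper quartile factors, and Adamts5 to -0.22 and Mmp15 to 0.13 with the GC and length trend removed. With 1 library left out the log2 fold changes ran as follows: Mmp19 -0.12 to 0.70, Adamts2 -0.46 to 0.092, Adam11 -0.055 to 0.43, Adamts19 -0.88 to 0.13, Mmp24os1 -0.028 to 0.098, Adamtsl4 -0.15 to 0.15, Adamtsl1 -0.38 to 0.012, Adam1b -0.14 to 0.42, Mmp17 -0.39 to 0.062, Adamts9 -0.075 to 0.56, Mmp15 -0.33 to 0.16, Mmp3 -0.63 to 0.27, Adamts7 -0.17 to 0.17, Timp1 -1.12 to 0.10. Adam1b had no value under a minimum of 1 CPM. With 3 mice a group, the members of few counts and those with 1 library far from the rest have wide errors.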
